A study of Saccharomyces cerevisiae with 6 samples.

Results

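The tRNA pools of *paf1∆* and *rtf1∆* yeast were compared with each other. The comparison holds 4 of the 6 libraries of the study, the 2 of the *paf1∆* strain and the 2 of the *rtf1∆* strain, chosen by the genotype in the sample labels, and it covers all 70 tRNA sequences of the deposited tables. The reads of these sequences were also added up by anticodon (43 types) and by amino acid (22 classes, with initiator methionine tRNA and a tRNA with no assigned anticodon as classes of their own). The question is whether loss of either of these subunits of one protein complex leaves the same tRNA pool.

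The study used tRNA-HySeq, in which gel-purified tRNA is broken by hydrolysis and fragments of 19 to 35 nucleotides are cloned and sequenced. Both deletion strains of budding yeast, DAS516 (*paf1∆*) and DAS549 (*rtf1∆*), were in log phase in rich medium with glucose (YEP, 30 °C), with no further treatment. According to the strain list each carries *HIS3* in place of the deleted gene in the NOY396 background, so both share this marker and background. The wild type strain DAS217, with 2 libraries, is not on that list, and its libraries enter no test between the deletions except in a fit of all 6 libraries, which also gives the values against wild type at the end. The mRNAs of *PAF1* and *RTF1* are not among the sequences counted, and the deletions could not be checked in these data. Nothing in the labels says that the 2 libraries of a strain came from separate cultures, so the p-values measure the spread between these libraries, which may be technical.

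Paf1 and Rtf1 are subunits of the Paf1 complex, which travels with RNA polymerase II and is needed for histone modifications on transcribed genes. tRNA genes are transcribed by RNA polymerase III from promoter elements inside the gene, and yeast has many copies of most of them. tRNAs that carry the same amino acid but differ in the anticodon are called isoacceptors, and tRNAs with the same anticodon but another sequence elsewhere are called isodecoders. The mature level of a tRNA reflects its genes as well as processing, modification and decay.

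The tRNAs on which the results turn are shown first, as the sequences of their genes in the R64 reference (RefSeq, 275 nuclear tRNA genes), without introns and without the CCA tail that is added after transcription. All 70 lengths in the *rtf1∆* tables equal that of an R64 gene for the same anticodon, or for any anticodon in the unassigned tRNA. By length and anticodon, or by length alone for that tRNA, 33 sequences match a single gene sequence. The first set holds the single sequence with the most reads in *paf1∆*, the one with the most reads in *rtf1∆*, and the 2 sequences with the largest decreases past the threshold. Capitals mark the anticodon.
tRNA-Arg(UCU), 11 genes, one at chrII:405878-405949 (plus strand): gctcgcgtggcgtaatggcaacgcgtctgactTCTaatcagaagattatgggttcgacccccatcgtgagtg
elongator tRNA-Met, 5 genes, one (*EMT1*) at chrIV:1175829-1175901 (plus strand): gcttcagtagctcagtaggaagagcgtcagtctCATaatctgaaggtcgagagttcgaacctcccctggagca
initiator tRNA-Met, 5 genes, one at chrIII:149920-149991 (plus strand): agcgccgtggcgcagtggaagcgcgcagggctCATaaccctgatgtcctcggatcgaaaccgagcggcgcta
tRNA-Gln(CUG), 1 gene (*CDC65*) at chrXIII:808246-808317 (minus strand): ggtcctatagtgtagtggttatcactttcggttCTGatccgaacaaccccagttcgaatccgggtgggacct

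The second set holds pairs of related tRNAs whose read ratio differed between the deletion strains, and capitals mark the positions at which the members of a pair differ. For tRNA-Ser(AGA) this is 1 added base in the single-gene sequence. Rows 1 and 2 of the tables could be matched to these sequences by length for tRNA-Asp(GUC), where row 1 is the 15-gene sequence, and for tRNA-Ser(AGA), where row 1 is the 10-gene sequence. For tRNA-Glu(UUC) and tRNA-Val(AAC) both sequences have the same length, and which of them is row 1 was not known.
tRNA-Glu(UUC), 13 genes, one at chrII:645167-645238 (plus strand): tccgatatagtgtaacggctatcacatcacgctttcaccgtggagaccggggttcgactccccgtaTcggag
tRNA-Glu(UUC), 1 gene at chrXIII:290801-290872 (plus strand): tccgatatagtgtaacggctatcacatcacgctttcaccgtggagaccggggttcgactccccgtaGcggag
tRNA-Val(AAC), 13 genes, one at chrV:438700-438773 (plus strand): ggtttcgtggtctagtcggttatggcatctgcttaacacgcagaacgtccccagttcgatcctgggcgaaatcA
tRNA-Val(AAC), 1 gene at chrXV:663812-663885 (minus strand): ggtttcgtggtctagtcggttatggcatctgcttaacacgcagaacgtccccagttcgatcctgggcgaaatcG
tRNA-Asp(GUC) 1, 15 genes, one at chrII:405960-406031 (plus strand): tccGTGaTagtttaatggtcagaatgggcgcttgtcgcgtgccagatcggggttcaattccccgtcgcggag
tRNA-Asp(GUC) 2, 1 gene at chrXIV:519099-519169 (minus strand): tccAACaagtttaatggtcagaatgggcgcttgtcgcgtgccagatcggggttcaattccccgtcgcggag
tRNA-Ser(AGA) 1, 10 genes, one at chrI:182522-182603 (minus strand): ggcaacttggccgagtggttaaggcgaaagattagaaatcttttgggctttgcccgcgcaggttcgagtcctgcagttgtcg
tRNA-Ser(AGA) 2, 1 gene at chrIV:1305630-1305712 (plus strand): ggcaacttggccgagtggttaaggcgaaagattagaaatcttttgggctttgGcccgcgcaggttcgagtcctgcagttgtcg
tRNA-Ser(CGA), 1 gene (*SUP61*) with an intron at chrIII:227942-228042 (plus strand): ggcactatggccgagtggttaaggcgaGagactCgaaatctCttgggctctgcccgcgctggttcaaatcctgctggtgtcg
tRNA-Ser(UGA), 3 genes, one (*SUP17*) at chrIX:248850-248931 (plus strand): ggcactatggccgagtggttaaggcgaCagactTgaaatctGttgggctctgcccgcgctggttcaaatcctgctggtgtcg

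The *paf1∆* libraries had 8259323 and 7906642 reads aligned to tRNAs and the *rtf1∆* libraries 771121 and 588048. The aligned reads were 87.85% and 87.43% of all reads in *paf1∆*, 5.64% and 6.08% in *rtf1∆*, and 6.76% and 6.43% in wild type. Each of the 70 reference sequences is also listed as 3 nucleotides longer in the *paf1∆* tables than in the *rtf1∆* and wild type tables. Genotype and processing therefore coincide in this comparison, and a difference made by the deletion and one made by the library or its alignment cannot be told apart. All 70 sequences had reads in every library, and the lowest count was 6842 and 3702 in *paf1∆* and 69 and 46 in *rtf1∆*. A count of 3 reads, the smallest taken as detection, is a share of 0.00051% or less in every library of the deletions. The least abundant sequence of an *rtf1∆* library, tRNA-Ser(CGA) in replicate 2, had a share of 0.00782% with a 95% Wilson interval from 0.00587 to 0.0104%, and this interval covers counting error only. Shares below are percentages of the aligned reads of a library, so all levels are relative to the tRNA pool and none is a level per cell, and fewer tRNA molecules cannot be told apart from more of another tRNA.

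A large part of the pool was made of other tRNAs in *paf1∆* than in *rtf1∆*. In *paf1∆* the tRNAs for arginine and serine together took 34.1% and 48.1% of the reads in replicates 1 and 2, against 4.77% and 3.56% in *rtf1∆*. In *rtf1∆* elongator methionine tRNA and the aspartate tRNAs together took 45.5% and 52.5%, against 9.14% and 8.73% in *paf1∆*. All other classes, 18 in number, together took 56.8% and 43.1% in *paf1∆* and 49.8% and 43.9% in *rtf1∆*. These groupings were chosen after the values were seen.

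With edgeR's quasi-likelihood test on the summed counts, scaled by TMM (edgeR's trimmed mean of ratios between libraries) and adjusted by Benjamini-Hochberg, 12 of the 22 amino acid classes (54.5%) passed the threshold of 0.05. Of all classes, 7 (31.8%) were higher in *paf1∆*, those for arginine, serine, asparagine, glutamate, lysine, valine and tryptophan, and 5 (22.7%) were lower, those for initiator methionine, isoleucine, cysteine, glutamine and aspartate. The split of the calls depended on the scaling, and with upper-quartile scaling 4 classes were higher and 7 lower. The arginine tRNAs had 22.3% and 22.4% of the reads in *paf1∆* and 2.96% and 2.18% in *rtf1∆*. On the log2 scale *paf1∆* exceeded *rtf1∆* by 3.11 (SE, the standard error, 0.51; adjusted p = 0.0117 by edgeR). The serine tRNAs had 11.7% and 25.7% in *paf1∆* and 1.81% and 1.38% in *rtf1∆*. The *paf1∆* libraries differed from each other in serine by more than the *rtf1∆* libraries did, but both lay far above them, and the log2 fold change was 3.65 (SE 0.76, adjusted p = 0.0211 by edgeR) with all libraries and 2.50 without *paf1∆* replicate 2. Asparagine tRNA had 3.43% and 0.890% in *paf1∆* and 0.324% and 0.257% in *rtf1∆*, and its log2 fold change was 2.68 (SE 0.49).

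The other classes that were higher differed by less. The lysine tRNAs, at 7.57% and 7.35% in *paf1∆* and 4.26% and 3.46% in *rtf1∆*, had a log2 fold change of 0.93 (SE 0.28), and the glutamate tRNAs, at 4.94% and 4.60% against 2.32% and 2.30%, one of 1.01 (SE 0.24). Valine and tryptophan tRNAs had log2 fold changes of 0.70 (SE 0.16) and 0.69 (SE 0.18). Of the classes that were lower, the isoleucine tRNAs had 2.10% and 1.30% in *paf1∆* and 4.94% and 3.95% in *rtf1∆*, a log2 fold change of -1.48 (SE 0.13). The aspartate tRNAs had 7.52% and 4.19% against 12.3% and 13.5%, a log2 fold change of -1.26 (SE 0.33). Cysteine tRNA was at -1.46 (SE 0.12) and the glutamine tRNAs at -1.27 (SE 0.12).

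Elongator methionine tRNA, which serves the internal AUG codons, showed the largest difference in share of all classes. It had 1.63% and 4.54% of the reads in *paf1∆* and 33.2% and 39.0% in *rtf1∆*. The groups were far apart, yet the *paf1∆* libraries were also apart from each other, by 4.34-fold after scaling, and the log2 fold change of the class of -3.44 (SE 1.10) had an adjusted p of 0.0517 by edgeR. Leucine, proline and tyrosine tRNAs were nearest to no difference, with log2 fold changes of 0.06 (SE 0.12), 0.05 (SE 0.23) and 0.06 (SE 0.38), and the shares of their libraries overlapped. The calls on amino acid classes rest on both *rtf1∆* libraries. Without *rtf1∆* replicate 1 the only call was asparagine, as it was without *rtf1∆* replicate 2, and the spread then came from the *paf1∆* libraries alone. Tryptophan was not called without *paf1∆* replicate 1 (log2 fold change 0.49, adjusted p = 0.0633 by edgeR).

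**Figure D1:**
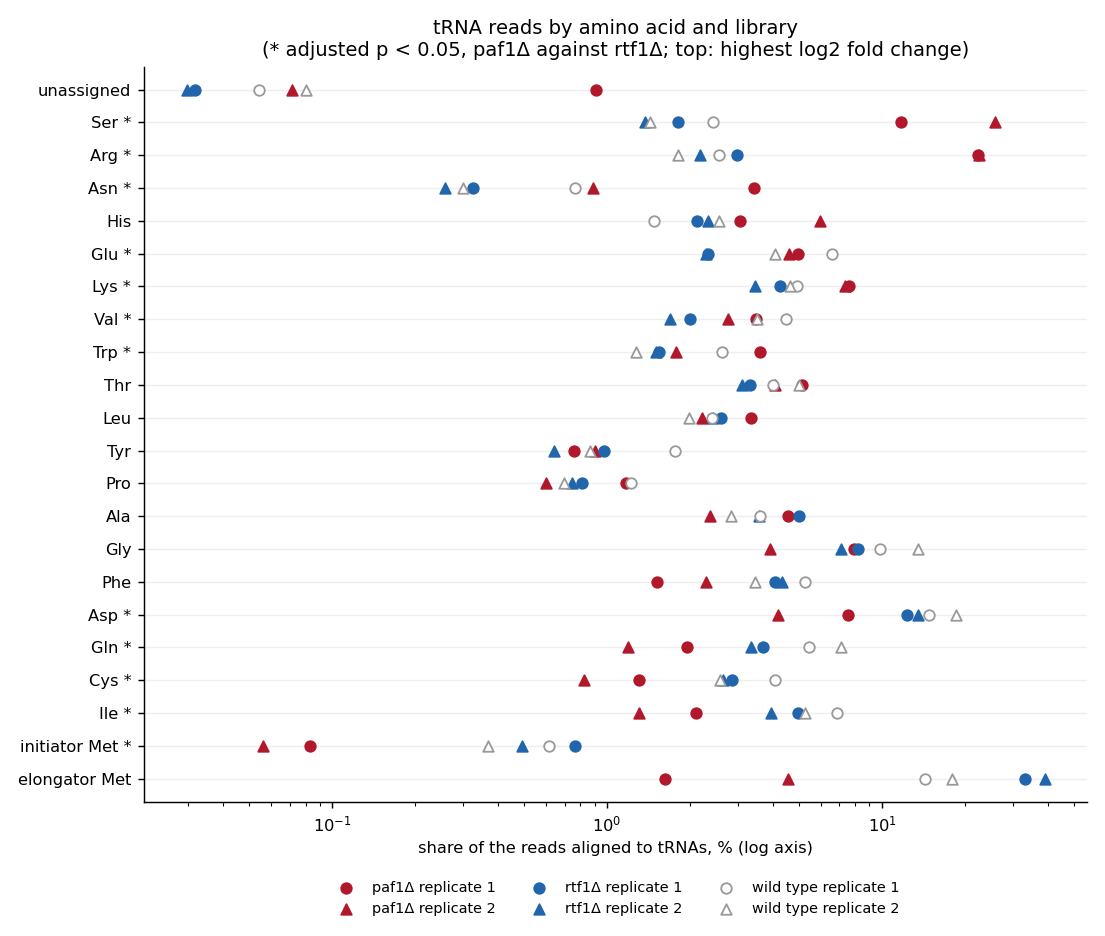
Share of the reads aligned to tRNAs (%, log axis) for 22 amino acid classes, one point per library of *paf1∆* (red), *rtf1∆* (blue) and wild type (open grey), ordered by the log2 fold change of *paf1∆* against *rtf1∆*, with an asterisk at adjusted p < 0.05 by edgeR. The serine and arginine points of *paf1∆* lie at 11.7 to 25.7%, against 1.38 to 2.96% in *rtf1∆*, and the elongator methionine points lie at 1.63 and 4.54% in *paf1∆* against 33.2 and 39.0% in *rtf1∆*.

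The same test run on the 70 single sequences called 18 (25.7%) at an adjusted p under 0.05. Of all 70, 10 were higher in *paf1∆* (14.3%) and 8 lower (11.4%). The log2 fold changes ran from -3.47 to 5.32 around a median of 0.05, the median of their absolute values was 0.84, and the median standard error was 0.31. Fitted values at least 2-fold higher in *paf1∆* were found for 16 sequences (22.9%) and at least 2-fold lower for 13 (18.6%). After TMM scaling the 2 strains did not overlap in 57 sequences (81.4%), and before scaling their shares did not overlap in 41 (58.6%). The number of calls was 14 without *rtf1∆* replicate 1, 11 without *rtf1∆* replicate 2, 44 without *paf1∆* replicate 1 and 47 without *paf1∆* replicate 2. With a library left out, the spread came from the other strain alone. The *rtf1∆* libraries lay closer to each other than the *paf1∆* libraries. An exact test of 2 libraries against 2 cannot give a two-sided p below 0.333 and was not used.

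**Figure D2:**
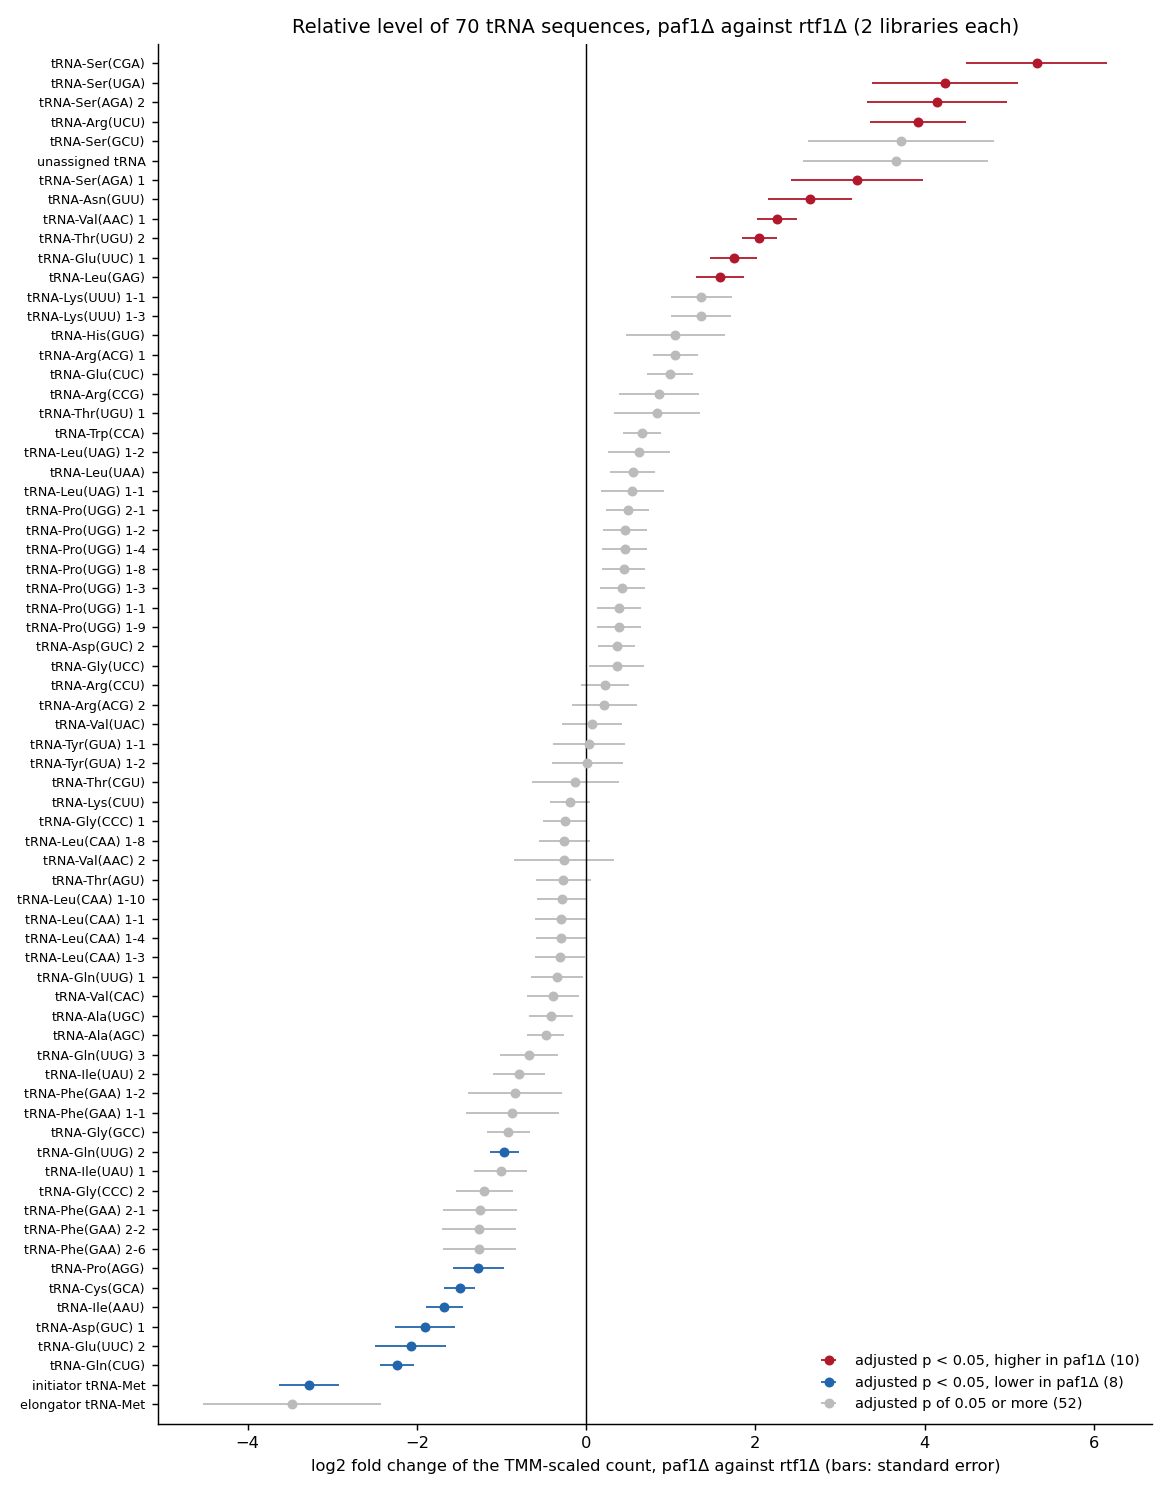
Log2 fold change of the TMM-scaled count, *paf1∆* against *rtf1∆*, for each of the 70 tRNA sequences, with its standard error as a bar, coloured by the edgeR call (red, higher in *paf1∆*, 10 sequences; blue, lower, 8 sequences; grey, adjusted p of 0.05 or more). Serine sequences and tRNA-Arg(UCU) stand at the top, up to 5.32, and the methionine tRNAs at the bottom, down to -3.47.

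tRNA-Arg(UCU), which reads AGA codons, was the single sequence with the most reads in both *paf1∆* libraries. It took 19.4% and 20.7% of the *paf1∆* reads and 1.55% and 1.03% of the *rtf1∆* reads, and 1.18% and 0.842% in wild type. The 2 sequences of tRNA-Ser(AGA) together took more in *paf1∆* replicate 2, with 25.4%. For tRNA-Arg(UCU), both *paf1∆* libraries lay above all others, and the *rtf1∆* libraries overlapped with wild type. The log2 fold change was 3.92 (SE 0.57, adjusted p = 0.0149 by edgeR). Without *rtf1∆* replicate 1 or 2 it was 4.19 or 3.71, with an adjusted p of 0.221 or 0.418 by edgeR. None of the other 4 arginine sequences passed the threshold. tRNA-Arg(ACG) 1, which reads CGU, CGC and CGA codons through inosine, had 1.81% and 0.801% in *paf1∆* and 0.618% and 0.495% in *rtf1∆*, a log2 fold change of 1.05 (SE 0.27, adjusted p = 0.0510 by edgeR), and the remaining 3 had log2 fold changes of 0.86, 0.23 and 0.21.

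The seryl-tRNA synthetase recognises serine tRNAs by their long variable arm rather than the anticodon. These tRNAs held 5 of the 6 highest log2 fold changes among assigned sequences. Of their 5 sequences, 4 passed the threshold, where 25.7% of all 70 were called. Closely related serine sequences can share reads, so these 4 are not separate results. tRNA-Ser(CGA), the product of the single gene *SUP61*, had 0.706% and 0.117% of the reads in *paf1∆* and 0.00895% and 0.00782% in *rtf1∆*, where it had 69 and 46 reads. Its log2 fold change of 5.32 (SE 0.84, adjusted p = 0.0167 by edgeR) was the highest of all 70. It was 4.06 without *paf1∆* replicate 1 and 5.99 without replicate 2. tRNA-Ser(UGA) had 0.713% and 0.116% in *paf1∆* and 0.0240% and 0.0121% in *rtf1∆*, a log2 fold change of 4.24 (SE 0.86) that was 2.93 without *paf1∆* replicate 1 and 4.89 without replicate 2. tRNA-Ser(AGA) is the main serine tRNA, and both of its sequences passed the threshold. The first had 4.85% and 12.8% in *paf1∆* and 1.18% and 0.864% in *rtf1∆*, a log2 fold change of 3.20 (SE 0.78), and the second 4.52% and 12.6% against 0.569% and 0.462%, a log2 fold change of 4.15 (SE 0.83), which was 2.73 without *paf1∆* replicate 2 and 4.87 without replicate 1. The adjusted p of the first, 0.0451 by edgeR, was 0.190 without *rtf1∆* replicate 2, and its log2 fold change was 1.85 without *paf1∆* replicate 2 and 3.90 without replicate 1.

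The *paf1∆* replicates moved in opposite ways within the serine tRNAs. Replicate 2 held more tRNA-Ser(AGA) than replicate 1, and replicate 1 held more of the other serine tRNAs. tRNA-Ser(GCU), which reads AGU and AGC codons, had 0.914% of the reads in *paf1∆* replicate 1 but 0.0723% in replicate 2, and 0.0271% and 0.0313% in *rtf1∆*. Its log2 fold change of 3.72 (SE 1.10) did not pass the threshold (adjusted p = 0.0651 by edgeR) and was 1.57 without *paf1∆* replicate 1 and 4.56 without replicate 2. The tRNA with no assigned anticodon, which has the length of 2 R64 genes of tRNA-Ser(GCU), had nearly the same counts as it, with a ratio of tRNA-Ser(GCU) to it of 0.999 and 1.01 in *paf1∆* and 0.853 and 1.06 in *rtf1∆*. The separate levels of these last tRNAs are uncertain. The unassigned tRNA had a log2 fold change of 3.66 (SE 1.09, adjusted p = 0.0653 by edgeR), which was 1.48 without *paf1∆* replicate 1 and 4.49 without replicate 2.

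Of the other sequences that were higher in *paf1∆*, tRNA-Asn(GUU), the only asparagine tRNA, had a log2 fold change of 2.65 (SE 0.50, adjusted p = 0.0234 by edgeR), which was 1.87 without *paf1∆* replicate 1 and 3.16 without replicate 2. tRNA-Val(AAC) 1 had 1.72% and 1.46% in *paf1∆* and 0.331% and 0.301% in *rtf1∆*, so each pair of replicates was close, and its log2 fold change was 2.25 (SE 0.24, adjusted p = 0.00759 by edgeR). tRNA-Glu(UUC) 1 had 3.26% and 3.15% in *paf1∆* and 0.929% and 0.905% in *rtf1∆*. Its log2 fold change was 1.74 (SE 0.28, adjusted p = 0.0167 by edgeR). tRNA-Thr(UGU) 2, at 2.05 (SE 0.20), and tRNA-Leu(GAG), at 1.58 (SE 0.28), also passed the threshold and were named after their values were seen. tRNA-Leu(GAG) was rare in all libraries, with 0.118% and 0.111% in *paf1∆* and 0.0396% and 0.0337% in *rtf1∆*.

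Initiator methionine tRNA, which starts translation at the first AUG, was the sequence with the largest decrease past the threshold. It had 0.0828% and 0.0561% of the reads in *paf1∆*, 0.764% and 0.491% in *rtf1∆* and 0.615% and 0.370% in wild type. The *paf1∆* libraries lay below all others and, after TMM scaling, were 1.05-fold apart from each other. The log2 fold change was -3.28 (SE 0.35, adjusted p = 0.00759 by edgeR), and lay from -3.51 to -2.98 when single libraries were left out. Elongator methionine tRNA, described above as a class, had -3.47 as a single sequence (SE 1.05, adjusted p = 0.0654 by edgeR). With DESeq size factors, upper-quartile scaling, total counts, DESeq2 or limma-voom in place of TMM and edgeR its adjusted p lay from 0.000534 to 0.0386. It lay from 0.0741 to 0.0835 by edgeR with thinned counts, the stricter filter or summed copies. With the replicate block of the labels or of the deposited names it was 0.157 or 0.132 by edgeR. Without *rtf1∆* replicate 1 or 2 the log2 fold change was -3.60 or -3.27. Without *paf1∆* replicate 1 or 2 it was -2.74 or -4.89. The ratio of initiator to elongator reads, 0.0510 and 0.0124 in *paf1∆* and 0.0230 and 0.0126 in *rtf1∆*, overlapped between the strains.

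tRNA-Gln(CUG), encoded by the single gene *CDC65* and reading CAG codons, had 0.383% and 0.275% in *paf1∆* and 1.48% and 1.39% in *rtf1∆*. Its log2 fold change was -2.23 (SE 0.20, adjusted p = 0.00759 by edgeR). tRNA-Asp(GUC) 1 had 4.10% and 2.44% in *paf1∆* and 10.3% and 11.9% in *rtf1∆*, a log2 fold change of -1.91 (SE 0.36, adjusted p = 0.0234 by edgeR). tRNA-Ile(AAU), at -1.68 (SE 0.22), and tRNA-Cys(GCA), at -1.49 (SE 0.18), are the main isoleucine tRNA and the only cysteine tRNA. tRNA-Glu(UUC) 2 had 0.306% and 0.102% in *paf1∆* and 0.721% and 0.749% in *rtf1∆*, a log2 fold change of -2.07 (SE 0.42, adjusted p = 0.0255 by edgeR). tRNA-Gln(UUG) 2 had a log2 fold change of -0.97 (SE 0.17), and tRNA-Pro(AGG), named after its values were seen, one of -1.27 (SE 0.30). Leaving out *rtf1∆* replicate 1 ended the calls of tRNA-Arg(UCU), tRNA-Glu(UUC) 2, tRNA-Asp(GUC) 1, tRNA-Gln(UUG) 2, tRNA-Leu(GAG) and tRNA-Pro(AGG). Leaving out *rtf1∆* replicate 2 ended these and those of tRNA-Cys(GCA), tRNA-Glu(UUC) 1 and tRNA-Ser(AGA) 1, with log2 fold changes of -1.48, 1.80 and 3.05 then.

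**Figure D3:**
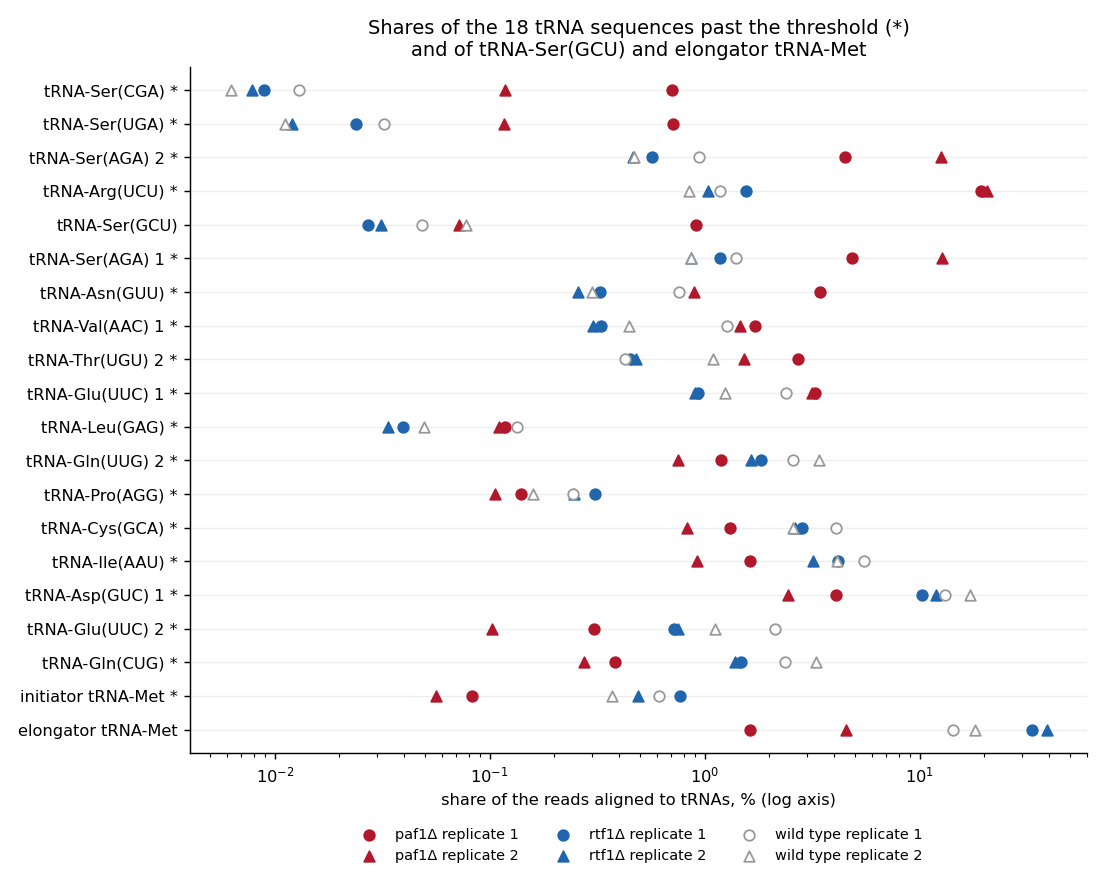
Share of the reads aligned to tRNAs (%, log axis) in each library for the 18 sequences past the threshold (asterisk) and for tRNA-Ser(GCU) and elongator tRNA-Met, with *paf1∆* in red, *rtf1∆* in blue and wild type in open grey. In all 18 the red points lie on one side of the blue points, as for tRNA-Arg(UCU) at 19.4 and 20.7% against 1.55 and 1.03%.

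Counts added up by anticodon do not depend on how reads were placed among isodecoders. They can still depend on placement between related sequences with different anticodons. In *paf1∆* the serine sum for anticodon UGA had 58880 and 9188 reads, and that for CGA 58348 and 9273. In *rtf1∆* the UGA sum had 185 and 71 reads, and the CGA sum 69 and 46. The calls of these serine sums may therefore not be separate results. The same limit holds for tRNA-Ser(GCU) and the unassigned tRNA, which were not called. Of the 43 anticodon types, 16 were called by edgeR (37.2%), 7 of them higher (16.3% of all types) and 9 lower (20.9%) in *paf1∆*. With total counts in place of TMM, 12 were higher and 6 lower. Higher were tRNA-Asn(GUU), tRNA-Arg(UCU), the serine tRNAs with the anticodons CGA, UGA and AGA, tRNA-Thr(UGU) and tRNA-Val(AAC). Lower were initiator methionine tRNA, tRNA-Gln(CUG), tRNA-Gln(UUG), tRNA-Ile(AAU), tRNA-Ile(UAU), tRNA-Cys(GCA), tRNA-Gly(GCC), tRNA-Asp(GUC) and tRNA-Pro(AGG). tRNA-Glu(UUC), whose sequences passed the threshold in opposite directions, had 0.86 as a sum (SE 0.24, adjusted p = 0.0526 by edgeR). tRNA-Gly(GCC), the main glycine tRNA, had 4.17% and 2.50% in *paf1∆* and 6.07% and 5.42% in *rtf1∆*, a log2 fold change of -1.03 (SE 0.21, adjusted p = 0.0276 by edgeR). Without *rtf1∆* replicate 1 no anticodon type was called by edgeR and 10 had an unadjusted p under 0.05. Without *rtf1∆* replicate 2 there were 10 calls, and the call of tRNA-Asp(GUC) was lost without *paf1∆* replicate 2 (log2 fold change -1.30, adjusted p = 0.0513 by edgeR).

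The balance among isoacceptors of an amino acid was compared next. In 12 amino acids with several anticodons there are 33 anticodon types. For 25 of them the share within the amino acid did not overlap between the strains. No test was run on these shares, which are free of the scaling between libraries. Over all 70 sequences the shares of the pool did not overlap in 41 (58.6%), and the levels after TMM scaling did not overlap in 57 (81.4%). Where an amino acid has 2 anticodons, their shares mirror each other and count as 2. tRNA-Arg(UCU) made up 89.4% ± 3.79 (SD, n = 2) of the arginine reads in *paf1∆* and 50.0% ± 3.62 (SD, n = 2) in *rtf1∆*. tRNA-Thr(UGU) made up 49.6% ± 14.2 (SD, n = 2) of the threonine reads against 17.6% ± 2.03 (SD, n = 2), and tRNA-Thr(AGU), the main threonine tRNA of *rtf1∆*, 41.1% ± 9.92 (SD, n = 2) against 68.3% ± 4.56 (SD, n = 2). The summed threonine reads differed less, with a log2 fold change of 0.46 (SE 0.18, adjusted p = 0.0846 by edgeR).

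In other amino acids, tRNA-Gln(CUG) made up 40.9% ± 1.01 (SD, n = 2) of the glutamine reads in *rtf1∆* and 21.4% ± 2.52 (SD, n = 2) in *paf1∆*, where tRNA-Gln(UUG), for CAA codons, held the larger rest. tRNA-Val(AAC) made up 61.0% ± 5.55 (SD, n = 2) of the valine reads in *paf1∆* and 34.9% ± 0.783 (SD, n = 2) in *rtf1∆*. tRNA-Pro(AGG) made up 14.8% ± 4.13 (SD, n = 2) of the proline reads against 35.7% ± 3.42 (SD, n = 2), while the shares of the summed proline reads overlapped. The split of the glutamate reads overlapped between the strains, with 28.6% ± 1.12 (SD, n = 2) and 28.5% ± 0.697 (SD, n = 2) on tRNA-Glu(CUC). In serine the split of *paf1∆* replicate 1 stood apart, with 80.1% of the serine reads on tRNA-Ser(AGA) against 98.8% in replicate 2 and 96.7% and 96.3% in *rtf1∆*.

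Isodecoders that differ at few bases also had other read ratios in *paf1∆*. Among 12 pairs of sequences with the same anticodon, the read ratio did not overlap between the strains in 11. In 9 both *paf1∆* libraries lay outside all other libraries, wild type included. No test was run on these ratios. For comparison, over all 70 sequences the shares of the pool did not overlap in 41 (58.6%), and the levels after TMM scaling in 57 (81.4%). For tRNA-Glu(UUC), whose sequences differ at position 67 of 72, sequence 1 had 10.7 and 30.7 reads per read of sequence 2 in *paf1∆*, 1.29 and 1.21 in *rtf1∆* and 1.13 and 1.11 in wild type. Sequence 1 was thus slightly ahead in the *rtf1∆* and wild type libraries and far ahead in *paf1∆*. tRNA-Val(AAC), whose sequences differ in the last base, position 74, also had its higher ratios in *paf1∆*, with 3.18 and 12.4 in *paf1∆*, 0.930 and 0.999 in *rtf1∆* and 1.02 and 0.996 in wild type. The second tRNA-Val(AAC) sequence itself had 0.543% and 0.118% in *paf1∆* and 0.355% and 0.301% in *rtf1∆*, so the libraries overlapped (log2 fold change -0.26, SE 0.59).

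For tRNA-Asp(GUC), whose sequences differ near the 5′ end, the ratio moved the other way. The 15-gene sequence had 1.20 and 1.38 reads per read of the single-gene sequence in *paf1∆*, 5.15 and 7.32 in *rtf1∆* and 8.11 and 11.3 in wild type. The shares of the single-gene sequence, 3.42% and 1.76% in *paf1∆* and 2.00% and 1.62% in *rtf1∆*, overlapped between the strains. After TMM scaling both *paf1∆* libraries lay above both *rtf1∆* libraries, with a log2 fold change of 0.36 (SE 0.22). The larger difference lay in the 15-gene sequence, at -1.91. For tRNA-Ser(AGA) the ratio of the 10-gene to the single-gene sequence was 1.07 and 1.01 in *paf1∆* and 2.08 and 1.87 in *rtf1∆*. The related tRNA-Ser(UGA) and tRNA-Ser(CGA), which differ at 3 positions between 28 and 42, likewise had nearly equal counts in *paf1∆*, with a ratio of 1.01 and 0.991 against 2.68 and 1.54 in *rtf1∆*. Reads of such pairs can share most of their sequence, and how reads that match several sequences were placed is not given in the sources used here. The pair with the smallest mean difference of log2 ratios was tRNA-Ile(UAU), which differs at position 59, with 0.833 and 0.823 against 0.95 and 0.972. Whether the reference that is 3 nucleotides longer takes part in these ratios was not tested.

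**Figure D4:**
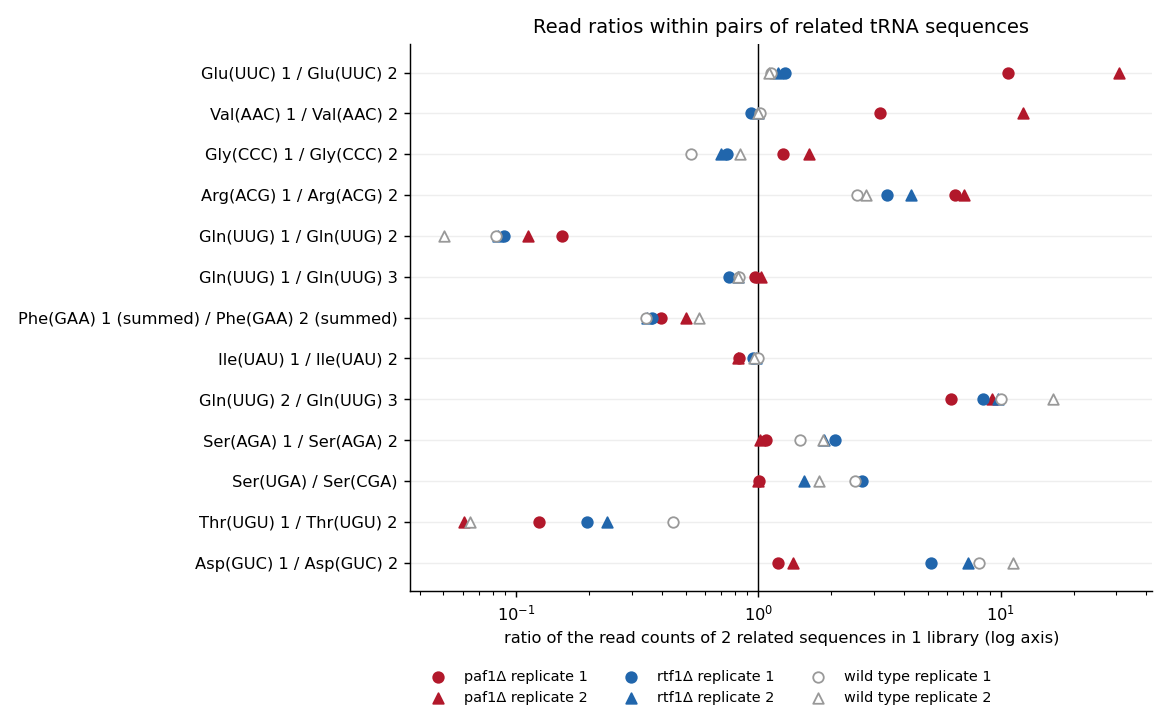
Ratio of the read counts of 2 related tRNA sequences within a library (log axis, black line at equal counts) for 12 pairs with the same anticodon and for tRNA-Ser(UGA) over tRNA-Ser(CGA), with *paf1∆* in red, *rtf1∆* in blue and wild type in open grey. For tRNA-Glu(UUC) the *paf1∆* points lie at 10.7 and 30.7 and the other 4 between 1.11 and 1.29.

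The tRNAs that were followed by northern blots in the study gave 14 sequences of 5 types. Of these, 2 were higher and 2 lower past the threshold and 10 were not called, where 25.7% of all 70 were called, and the median log2 fold change was -0.57, against 0.05 for all 70. Those called were tRNA-Arg(UCU), initiator methionine tRNA and the sequences of tRNA-Glu(UUC), given above. The 5 sequences of tRNA-Phe(GAA) gave values between -1.26 and -0.84 on the log2 scale. The shares of all of them were lower in both *paf1∆* libraries than in both *rtf1∆* libraries, but the lowest adjusted p was 0.0866 by edgeR. The call of tRNA-Phe(GAA) 2-1, 2-2 and 2-6 depended on the fit, with an adjusted p by edgeR of 0.0321 with DESeq size factors, 0.00578 with upper-quartile scaling and 0.0303 with total counts. It was 0.00722 to 0.00763 by DESeq2, but 0.0776 by limma-voom and 0.361 by edgeR without *rtf1∆* replicate 2. Without *paf1∆* replicate 1 or 2, tRNA-Phe(GAA) 2-1 had log2 fold changes of -0.77 or -1.92, and tRNA-Phe(GAA) 1-1 had -0.29 or -1.79. The 5 sequences of tRNA-Leu(CAA) had near-equal counts and were taken as copies that share reads. Their log2 fold changes ran from -0.31 to -0.26 with standard errors of 0.30. Their shares overlapped between the strains, although after TMM scaling both *paf1∆* libraries lay below both *rtf1∆* libraries. These tRNAs and those of the next list were picked by the study that made these libraries, and their counts are no independent evidence of a direction.

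The types whose genes were tested for RNA polymerase III occupancy in the study gave 21 sequences of 12 types. Of these, 3 were higher (tRNA-Ser(CGA), tRNA-Asn(GUU) and tRNA-Glu(UUC) 1) and 3 lower (tRNA-Gln(CUG), tRNA-Glu(UUC) 2 and tRNA-Asp(GUC) 1), where 25.7% of all 70 were called, and the median was -0.28. tRNA-Tyr(GUA) and tRNA-Thr(CGU) were near no difference, at 0.03 and 0.01 for the tyrosine sequences (SE 0.42 and 0.42) and -0.13 (SE 0.51), and the sign of these small values depended on the scaling or the libraries used.

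Sequences were also grouped by features of the tRNA that the comparison did not use. Of the 14 sequences with a long variable arm, the serine and leucine tRNAs, 5 were higher past the threshold and none lower, with a median of 0.59. Those called were serine sequences and tRNA-Leu(GAG), and the summed leucine reads had a log2 fold change of 0.06 (SE 0.12). Of the 28 sequences whose genes carry an intron, which is removed before the tRNA is used, 1 was higher and none lower (tRNA-Ser(CGA)), with a median of 0.21. Of the 10 sequences whose anticodon starts with an adenine that is turned into inosine, 3 were higher and 2 lower, with a median of -0.02. Of the 7 sequences with the mcm5s2 modification on the wobble uridine, carried by tRNA-Glu(UUC), tRNA-Gln(UUG) and tRNA-Lys(UUU), 1 was higher and 2 lower, with a median of -0.34. The shares called over all 70 sequences, 14.3% higher and 11.4% lower, are the background to these counts. Near-identical copies count more than once in them.

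Across 42 anticodon types with a value, the number of R64 genes ranked with the mean share in each strain, with Spearman's rho of 0.709 in *paf1∆*, 0.615 in *rtf1∆* and 0.534 in wild type, and rho with the log2 fold change was -0.0612. The 14 types with at least 10 genes had a median log2 fold change of -0.34, with 8 lower in *paf1∆*, and the 6 types with a single gene one of 0.44, with 2 lower. The rho of the log2 fold change was -0.0792 with the GC content of the spliced sequence and 0.338 with its length. The points share the same 4 libraries and are a description with no test.

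The log2 normalized counts of the 70 sequences, averaged over the libraries of a strain, gave an R2 of 0.436 between *paf1∆* and *rtf1∆*, with a slope of 0.591, Pearson's r of 0.661 and Spearman's rho of 0.738. R2 was 0.371 for the 43 anticodon types and 0.241 for the 22 amino acid classes. Single libraries of different strains gave R2 values from 0.324 to 0.549, all of them below the 0.778 between the *paf1∆* libraries and the 0.986 between the *rtf1∆* libraries. Since tRNAs are not replicates, these values carry no p. The strains also differed in the spread of their replicates. After scaling, the *paf1∆* libraries differed by at least 2-fold in 18 sequences, with a median of 1.46-fold and a maximum of 8.21-fold, and the *rtf1∆* libraries in none, with a median of 1.13-fold and a maximum of 1.80-fold. Replicate counts were farther apart than counting noise allows, the chi-square divided by its degrees of freedom being 23960 for *paf1∆* and 162 for *rtf1∆*, so each library was counted as 1 sample. The pool was more even in *paf1∆*, where the effective number of equally abundant sequences was 17.1 and 11.4, against 7.53 and 5.70 in *rtf1∆* and 17.8 and 12.5 in wild type.

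**Figure D5:**
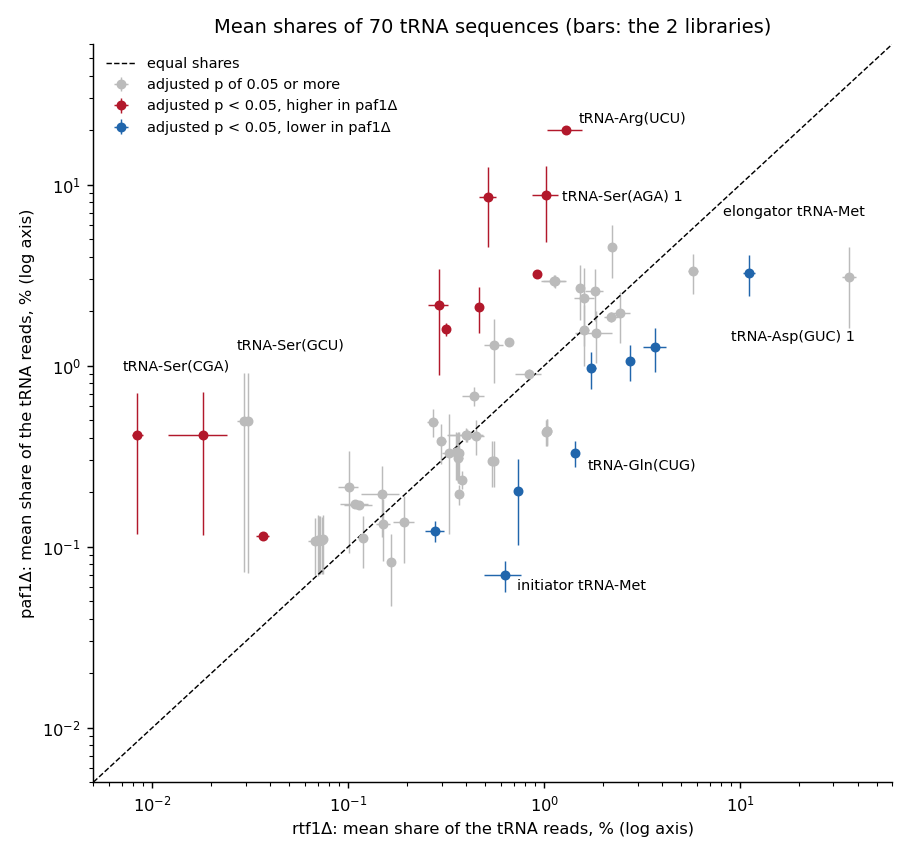
Mean share of the reads aligned to tRNAs (%, log axes) of 70 sequences in *rtf1∆* (horizontal) and *paf1∆* (vertical), with bars that span the 2 libraries of each strain, a dashed line at equal shares and colours for the edgeR call. tRNA-Arg(UCU), the serine sequences and the methionine tRNAs lie far from the line, as elongator tRNA-Met does with 1.63 and 4.54% against 33.2 and 39.0%.

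Wild type levels were set beside both deletions in a fit of all 6 libraries. For 17 of the 18 called sequences both wild type libraries lay on the *rtf1∆* side of both *paf1∆* libraries, tRNA-Leu(GAG) being the exception. The 18 were selected for a difference between the deletions, and the same count for the uncalled sequences is not given here. Wild type and *rtf1∆* libraries also share the shorter reference sequences and the low percentage of aligned reads. Whether wild type lay on that side through genotype or through processing was not tested. As the comparisons of each deletion with wild type share the wild type libraries, their values are given side by side only. tRNA-Arg(UCU) had a log2 fold change against wild type of 4.58 (SE 0.50) in *paf1∆* and 0.66 (SE 0.43) in *rtf1∆*. tRNA-Gln(CUG) had -2.98 (SE 0.42) and -0.75 (SE 0.39), tRNA-Cys(GCA) -1.44 (SE 0.31) and 0.05 (SE 0.31), and tRNA-Ser(CGA) 5.49 (SE 0.71) and 0.17 (SE 0.62). Elongator methionine tRNA had values of opposite sign against wild type, -2.06 (SE 0.76, adjusted p = 0.0780 by edgeR) in *paf1∆* and 1.41 (SE 0.74, adjusted p = 0.365 by edgeR) in *rtf1∆*, and neither passed the threshold.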

How the data were processed

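Reads of tRNA-HySeq libraries were clipped, trimmed and aligned by the authors to the tRNA sequences of yeast. Bowtie and SAMtools are named in the submitters' processing notes, without versions. The authors deposited, per library, raw read counts on 70 sequences with the length of each reference sequence in nucleotides (another number, not a level) and the count of unaligned reads, without normalization.

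Groups and replicate numbers were taken from the sample labels. For *rtf1∆* the numbers in the labels are crossed with those of the deposited names, and the labels were followed. Counts of the 4 libraries were tested in R (version 4.3.3) by edgeR (version 4.0.16; TMM, quasi-likelihood F test, two-sided, Benjamini-Hochberg at 0.05 over all sequences, anticodons or amino acids). Sequences needed 10 counts in 2 of the libraries, and none was removed. The SE is the log2 fold change over the root of the F statistic. R2 used DESeq-normalized counts plus a pseudocount of 1. Sequences of 1 anticodon were grouped as copies that share reads where a binomial test found no difference between their counts in any deletion library. This gave 7 groups with 23 sequences in all, whose separate levels are uncertain. Sequence identity was not used, and closely related sequences outside these groups, such as tRNA-Glu(UUC) 1 and 2, can also share reads. TMM factors were 1.29 and 0.827 in *paf1∆* and 1.02 and 0.923 in *rtf1∆*.

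Sequences were named by a rule: up to 6 of the largest called changes in each direction (1 per anticodon), the most abundant tRNA of each library, tRNAs on northern blots or with occupancy tests in the study, and all sequences of called amino acids. Members and lists were chosen with earlier results of these data known. Alternatives were other scalings and filters, DESeq2 version 1.42.0, limma-voom (limma version 3.58.1), all 6 libraries, replicate blocks, thinned counts, summed copies, and each library left out, where a lone library was assumed to vary like the other strain.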

Additional observations from a re-analysis of the deposited data

Results flagged for a closer look

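For 10 of the 70 sequences, the *paf1∆* and *rtf1∆* libraries lay on opposite sides of both wild type libraries. Of these 10, 4 were past the threshold between the deletions, where 25.7% of all 70 were called. The 10 are not all separate results. They include tRNA-Phe(GAA) 2-1, 2-2 and 2-6, a group of copies that share reads. They also include tRNA-Ser(GCU) and the unassigned tRNA, which had nearly the same counts. None of these copies and near-equal sequences was called. The difference between the deletions is the edgeR comparison of *paf1∆* with *rtf1∆*, and neither deletion is shown to differ from wild type by it. For initiator methionine tRNA it was -3.28 on the log2 scale. Against wild type it had -2.61 in *paf1∆* (adjusted p = 0.00291 by edgeR) and 0.67 in *rtf1∆* (adjusted p = 0.365 by edgeR). tRNA-Val(AAC) 1, at 2.25 between the deletions, had 1.21 in *paf1∆* and -1.05 in *rtf1∆* against wild type, and tRNA-Glu(UUC) 1, at 1.74, had 1.11 and -0.63. tRNA-Pro(AGG), at -1.27, had -0.49 and 0.79. For the last 3 the adjusted p against wild type lay between 0.0615 and 0.365 by edgeR in both deletions.

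Reads aligned to no tRNA stood outside all comparisons. In *rtf1∆* they were 94.36% and 93.92% of all reads, above the 93.24% and 93.57% of wild type, and in *paf1∆* they were 12.15% and 12.57%. What these reads are was not tested.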

How the results depend on the processing

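The 18 calls on sequences became 29 when edgeR used DESeq size factors (all 18 kept), 29 with upper-quartile scaling (18 kept), 35 with DESeq2 (18 kept), 26 with total counts (16 kept), 20 with limma-voom (18 kept) and 25 in the fit of all 6 libraries (17 kept). With single libraries left out the count lay between 11 and 47 for sequences, 0 and 28 for anticodons (16 with all libraries) and 1 and 16 for amino acids (12 with all libraries). With the replicate block of the labels 26 sequences, 19 anticodons and 12 amino acids were called by edgeR, and with the *rtf1∆* numbers of the deposited names 0 sequences (26 with an unadjusted p under 0.05), 12 anticodons and 10 amino acids. Deviations of same-numbered libraries correlated at 0.0117. With 2 libraries per strain this value cannot show whether the numbers pair the samples. The median absolute log2 fold change of 0.84 became 0.75 with upper-quartile scaling, which moved the median of all sequences from 0.05 to -0.23, and 0.99 for anticodon sums. Summing the unassigned tRNA with tRNA-Ser(GCU), chosen after seeing the data, gave 22 anticodon calls.

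None of the 18 called sequences changed direction under any alternative run, but sequences that were not called did. Outside those named by the rule, tRNA-Thr(AGU) lay between -0.73 and 0.10 and tRNA-Gly(UCC) between -0.062 and 0.70 with single libraries left out. tRNA-Tyr(GUA) 1-1 and 1-2 had -0.25 and -0.27 with upper-quartile scaling, -0.049 and -0.067 with limma-voom, -0.017 and -0.035 with the replicate block of the labels and with that of the deposited names, -0.013 and -0.054 with thinned *paf1∆* counts, and -0.020 and -0.041 without the 3 most abundant sequences. With upper-quartile scaling tRNA-Arg(ACG) 2 had -0.046, tRNA-Arg(CCU) -0.051 and tRNA-Val(UAC) -0.22, and with total counts tRNA-Val(AAC) 2 had 0.0083. With single libraries left out tRNA-Thr(CGU) lay between -0.91 and 0.41, tRNA-Tyr(GUA) 1-1 between -0.48 and 0.43, tRNA-Tyr(GUA) 1-2 between -0.49 and 0.41, tRNA-Arg(ACG) 2 between -0.14 and 0.51, tRNA-Lys(CUU) between -0.42 and 0.029, tRNA-Val(AAC) 2 between -1.22 and 0.32 and tRNA-Val(UAC) between -0.41 and 0.45. The called anticodon sum of tRNA-Asp(GUC) was 0.24 without the 3 most abundant sequences, since these include tRNA-Asp(GUC) 1. Every comparison rests on 2 libraries per strain, and read numbers give counting error only.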
